A study of Mus musculus with 10 samples.

Results

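The cells of clusters 9 and 15 of a single-cell RNA sequencing (scRNA-seq) survey of the mouse paraventricular hypothalamus (PVH) were compared, the 2 clusters that were named for thyrotropin-releasing hormone (Trh). Members were taken by the cluster number that the authors gave each cell. Cluster 9 held 25 cells and cluster 15 held 60 cells, so that 85 of the 706 cells of the survey, and 85 of its 664 cells in the 12 PVH clusters, were studied. The genes Trh, Ptx4 and Reln were given as marks, Trh for both clusters, Ptx4 for cluster 9 and Reln for cluster 15. All cells came from 1 condition. Male Agrp-IRES-Cre mice crossed with Ai9, older than 7 weeks, carried tdTomato wherever the Agrp promoter had driven Cre, and the labelled AGRP axons were used to find the edge of the PVH before cells were picked by hand. The labels call the picked cells tdTomato positive, while the methods use the label for the boundary, and Agrp itself had a UMI in 2 of 25 cells of cluster 9 and 2 of 60 cells of cluster 15. A UMI (unique molecular identifier) counts 1 captured RNA molecule. Cells lay on 10 plates, and which animal filled which plate is not given in the sources used here, so p-values measure the spread between plates.

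Thyrotropin-releasing hormone is a tripeptide cut from the product of Trh. PVH neurons that release it into the portal blood drive thyrotropin release from the pituitary and through it the thyroid, and thyroid hormone feeds back on them. Other PVH Trh neurons project within the brain. Reelin, the product of Reln, is a large secreted protein that binds lipoprotein receptors on neurons, and Ptx4 encodes a secreted member of the pentraxin family, whose neuronal members gather glutamate receptors at synapses.

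On 5 plates there were 2 or more cells of each cluster, and these formed the comparison, 4 with the prefix Q (Q5, Q6, Q7 and Q8) and 1 with the prefix JM (JM8). They held 23 cells of cluster 9 and 35 cells of cluster 15, summed per plate and cluster to between 259175 and 1859237 UMIs. Prefixes were taken as batches, as in the authors' table. Cells had between 53004 and 568796 UMIs. On Q6 and Q8 the cluster 15 sums came from 2 and 3 cells, which were shallower than the cluster 9 cells beside them, with a median of 129587.5 against 222088.5 UMIs on Q6 and of 88195 against 186968 UMIs on Q8. Among the 85 cells, 3 pairs of plates shared 5 well barcodes in all. Both clusters were drawn by the authors from these same UMI counts, so a difference between them is no independent evidence that 2 types exist. Snap25, a gene of all neurons, had a UMI in 25 of 25 and in 58 of 60 cells.

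The bases just before the start sites of Trh and Reln are shown because these genes divided the cells of cluster 15. They are the 250 bases before the RefSeq start, read on the gene's strand from GRCm38.p6, at chr6:92244651-92244900 for Trh and chr5:22344706-22344955 for Reln. Capitals mark a match to TGACCTCA, which was searched on both strands, as was the palindrome TGACGTCA, known as the cyclic AMP response element.
Trh: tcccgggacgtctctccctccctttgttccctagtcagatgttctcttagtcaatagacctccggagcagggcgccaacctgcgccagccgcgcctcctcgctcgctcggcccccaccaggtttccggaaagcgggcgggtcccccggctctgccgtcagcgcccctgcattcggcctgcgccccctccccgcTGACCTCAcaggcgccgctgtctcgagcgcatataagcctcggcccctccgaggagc
Reln: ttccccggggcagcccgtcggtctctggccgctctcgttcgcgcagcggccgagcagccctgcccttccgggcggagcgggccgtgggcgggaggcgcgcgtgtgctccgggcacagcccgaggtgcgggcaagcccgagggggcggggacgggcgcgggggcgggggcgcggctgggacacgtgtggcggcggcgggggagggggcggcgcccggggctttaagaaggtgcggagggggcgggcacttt
The Trh window held 1 match, which began 57 bases before the start, and the Reln window held a match to neither motif. Of 27025 genes with such a window, 1.87% held TGACCTCA and 1.62% held TGACGTCA. GC content was 68.8% for Trh and 80.0% for Reln against a median of 52.0% over all windows. Trh held 25 CG dinucleotides and Reln held 37, against a median of 6. A match is a description of these letters and not a site of binding.

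Trh was found in most cells of cluster 9 and in under 50% of the cells of cluster 15. At least 1 Trh UMI was found in 22 of 25 cells of cluster 9 (88.0%, exact 95% binomial interval 68.8 to 97.5%) and in 25 of 60 cells of cluster 15 (41.7%, 29.1 to 55.1%). With 10 UMIs as the minimum the counts were 21 and 18 cells. Intervals cover counting error only. In the other 10 PVH clusters 91 of 579 cells had a Trh UMI (15.7%, median depth 134611 UMIs per cell). The highest share among them was 31.3%, in cluster 13. With 10 UMIs as the minimum the count was 21 of these 579 cells (3.63%). Cluster 13 was again the highest, with 4 of 16 cells (25.0%), beside 18 of 60 cells in cluster 15 and 21 of 25 in cluster 9. Cells with Trh carried much of it in both clusters, with a median of 514 UMIs in cluster 9 and 210 UMIs in cluster 15 and the highest cells at 2105 and 2192 UMIs.

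Ptx4 had a UMI in 11 of 25 cells of cluster 9 (44.0%, 24.4 to 65.1%), in 1 of 60 cells of cluster 15 (1.67%, 0.0422 to 8.94%), and in 4 of 579 cells of the other PVH clusters. Reln had a UMI in 1 of 25 cells of cluster 9 (4.00%, 0.101 to 20.4%), where it was a single UMI, and in 33 of 60 cells of cluster 15 (55.0%, 41.6 to 67.9%). Other clusters also had Reln, in 27 of 35 cells of cluster 12, 10 of 16 cells of cluster 13 and 49 of 57 cells of cluster 14.

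**Figure D1:**
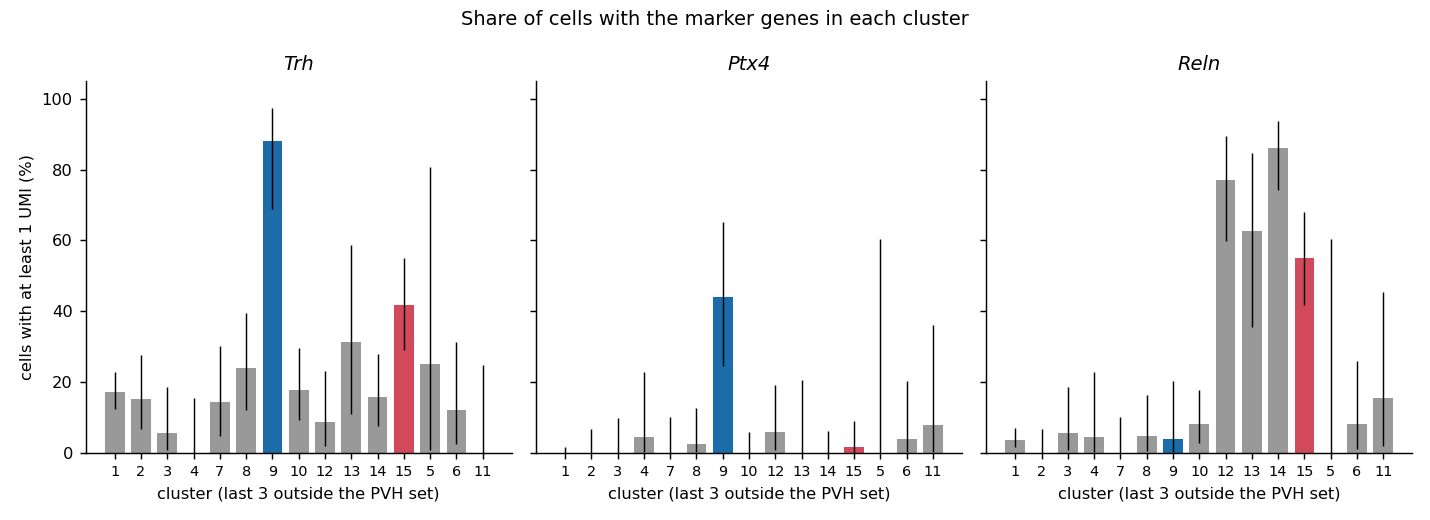
Share of cells with at least 1 UMI of Trh, Ptx4 and Reln (y axis, percent) in each of the 15 clusters (x axis), with exact 95% binomial intervals as bars. Cluster 9 (blue) reached 88.0% for Trh and 44.0% for Ptx4, and cluster 15 (red) reached 41.7% for Trh and 55.0% for Reln.

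On the 5 plates the share of cells with Trh was lower in cluster 15 each time, with differences in percentage points of -42.9 on Q5, -50.0 on Q6, -3.33 on Q7, -33.3 on Q8 and -28.2 on JM8 (mean -31.6 ± 17.9, SD, n = 5 plates). Ptx4 was found in 33.3% of cluster 9 cells on Q5 and in 50.0% on each of the other 4 plates, and in no cluster 15 cell on any of the 5. The share of cells with Reln was higher in cluster 15 by 28.6 points on Q5, 43.3 on Q7 and 76.9 on JM8, while on Q6 and Q8 no cell of either cluster had it. Trh, Ptx4 and Reln mark the clusters, which were drawn from these same counts, so their values are a description with no test.

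The summed level of Trh, in CPM (UMIs per 1000000 UMIs of the sum), overlapped between the clusters. In cluster 9 it was 2357 on Q5, 1914 on Q6, 2737 on Q7, 2781 on Q8 and 3504 on JM8 (mean 2659 ± 588, SD, n = 5). Cluster 15 gave 1661, 3156, 1114, 2490 and 337 on the same plates (mean 1752 ± 1111). Trh was thus lower in cluster 15 on 4 of 5 plates and higher on Q6, with a log2 fold of cluster 15 over cluster 9 of -0.88 ± 0.43 (SE), and of -1.59 ± 1.37 in the joint fit of all PVH clusters described below. Cluster 15 sums on 4 plates outside the comparison spread still wider, from 0 on JM6 through 358 on JM7 and 832 on JM5 to 5306 on AL5.

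The Trh cells and the Reln cells of cluster 15 were largely different cells. Of its 60 cells, 8 had at least 1 UMI of both genes, 17 had Trh alone, 25 had Reln alone and 10 had neither. At 10 UMIs or more, 2 cells had both, 16 had Trh alone, 25 had Reln alone and 17 had neither. These counts are a description, since cells of 1 cluster share plates and the clusters were drawn from these same counts.

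**Figure D2:**
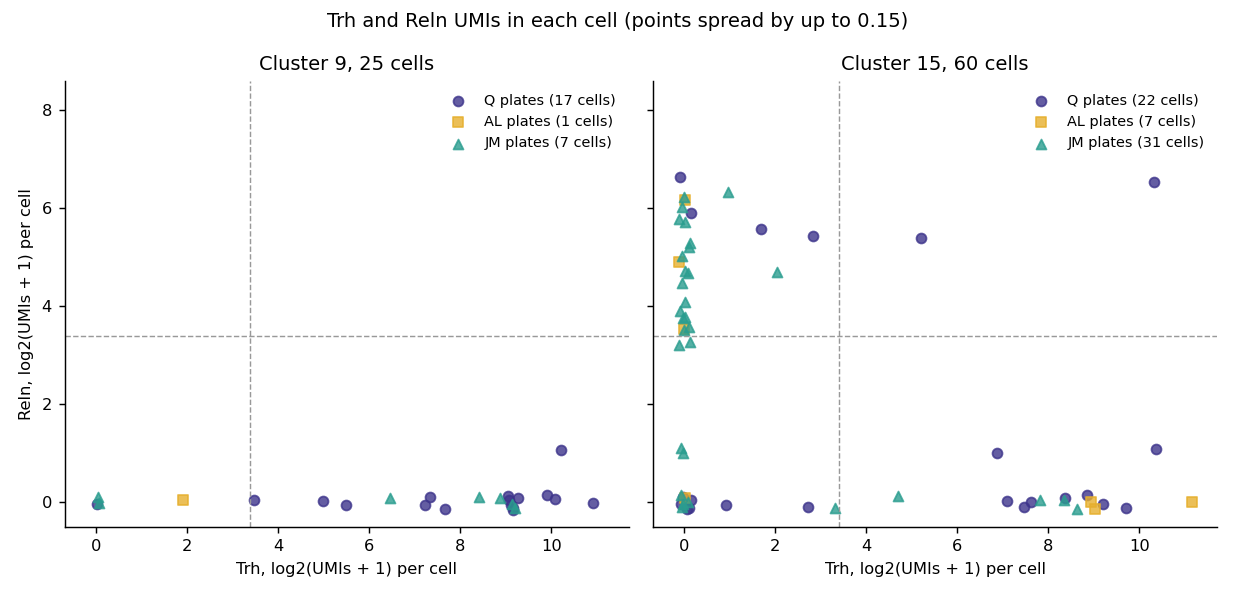
Trh (x axis) and Reln (y axis) in each cell, as log2(UMIs + 1), for cluster 9 (left) and cluster 15 (right), with plate prefixes as colours and dashed lines at 10 UMIs. In cluster 15, 16 cells lie right of and below the lines, 25 lie left of and above them, and 2 lie past both.

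The make-up of cluster 15 differed by plate prefix, as a description with no test. On Q plates 15 of 22 cells (68.2%) had Trh and 8 (36.4%) had Reln, whereas on AL and JM plates 10 of 38 cells (26.3%) had Trh and 25 (65.8%) had Reln. Gad2, which encodes an enzyme of GABA synthesis, was found in 11 of 22 cells (50.0%) on Q plates and 7 of 38 (18.4%) on the others. In cluster 9, Trh was found in 16 of 17 cells on Q plates and 6 of 8 on the others. The part of the batch in the make-up of cluster 15 was not tested.

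Across all genes, the 5-plate fit called 1 gene of 6529 tested (0.0153%), at an edgeR quasi-likelihood adjusted p under 0.05 with the plate as a block. That gene was Rab3b. At an unadjusted p under 0.05 there were 192 genes (2.94%), and DESeq2 on the same sums called 79 (1.21%), of which 37 were higher in cluster 15 and 42 in cluster 9. On simulated data of this design DESeq2 made many more false calls than edgeR and more than its nominal rate. Its counts are therefore given beside those of edgeR and nothing is read from them. The simulation took its dispersions from the edgeR fit. Among its changed genes that passed the low-count filter, edgeR found 6 of 35 at 4-fold (17.1%), 11 of 37 at 8-fold (29.7%) and 27 of 31 at 32-fold (87.1%). Changed genes that the filter removed are not counted in these shares. A gene or list without a call may thus still differ between the clusters. The clusters come from these same counts, where the authors grouped cells by genes whose variance exceeded technical noise. A p between the clusters therefore says how steady a difference was over plates, not that the clusters differ. When all 12 PVH clusters were fitted together, which estimates the spread from 84 sums and adds 4 plates for cluster 15, 133 of 11941 genes (1.11%) were called between clusters 9 and 15, 90 higher in cluster 15 and 43 higher in cluster 9. Without the sums of clusters 9 and 15 on Q6 and Q8 it called 33 genes, 23 of them among the 133. This fit, named below as without Q6 and Q8, kept the other clusters on these plates. It left cluster 9 with Q5, Q7 and JM8. On the Q plates alone the joint fit called 19, of which 11 were among the 133. Of the 133 genes 132 had a value in all 3 fits, with the same sign in each. The reduced fits reuse sums of the full fit, so this agreement is no independent evidence. Called in all 3 were 4 genes: Rab3b, Eef1a1, Pou3f2 and Sirpa.

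Rab3b was the gene called on the 5 plates, higher in cluster 9. Rab3b, a small GTPase of synaptic and secretory vesicles, was at 2056 CPM on Q5, 1738 on Q6, 1007 on Q7, 2284 on Q8 and 1046 on JM8 in cluster 9. In cluster 15 it was at 573, 698, 261, 385 and 260. The 2 ranges did not overlap, and Rab3b fell by 1.96 on the log2 scale in cluster 15 (SE 0.25, edgeR adjusted p = 0.00441). On the 4 plates outside the comparison cluster 15 gave 186 to 405, below every cluster 9 sum. Among cells with a UMI the median of Rab3b was 1198 CPM in cluster 9 and 314 in cluster 15. The highest of the other PVH clusters was cluster 10, at 724. Of the 6529 tested genes 0.996% did not overlap between the clusters on the 5 plates, 42 higher in cluster 9 and 23 higher in cluster 15.

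Omp, which encodes olfactory marker protein, was at 107, 275, 237, 144 and 170 CPM in cluster 9 on Q5, Q6, Q7, Q8 and JM8. Cluster 15 was at 0 on the Q plates and at 8.11 on JM8, where 1 cell carried all 10 UMIs. At least 1 UMI was found in 20 of 25 and in 1 of 60 cells, and the highest of the other PVH clusters was cluster 10, with 13 of 62 cells. The fold did not pass in the 5-plate fit (log2 fold change -8.11 ± 1.64, edgeR adjusted p = 0.249) and did in the joint fit (-8.18 ± 1.64, adjusted p = 0.00378), while the adjusted p of the joint fit was 0.0801 without Q6 and Q8 and 0.0437 on the Q plates alone. Omp lies within Capn5 in the annotation, on the same strand.

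Bdnf, brain-derived neurotrophic factor, was present in every cell of cluster 9 and in 23 of 60 cells of cluster 15. It was also found in 15 of 16 cells of cluster 13 and 28 of 57 of cluster 14. Among cells with a UMI its median was 2453 CPM in cluster 9 and at most 456 (cluster 14) in the other PVH clusters. The summed level of Bdnf in cluster 9 was 2422, 2794, 2132, 2300 and 2870 CPM, a narrow range, against 173, 216, 196, 0 and 185 in cluster 15. The 2 ranges did not overlap, and the 4 further cluster 15 sums lay between 2.61 and 258. Its log2 fold change was -4.36 ± 0.82 in the 5-plate fit (edgeR adjusted p = 0.630) and -3.63 ± 1.05 in the joint fit (adjusted p = 0.0703), so that it passed in neither.

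Ptx4 in cluster 9 stood at 14.5, 42.2, 51.4, 66.9 and 92.1 CPM on Q5, Q6, Q7, Q8 and JM8, and at 0 in every cluster 15 sum of these plates. With 3 UMIs taken as the floor of a summed count of 0, Ptx4 was at least 80.8-fold lower in cluster 15 over the 5 plates. Outside the compared plates the AL5 sum of cluster 15 held 6.57 CPM. Col6a5, a collagen VI chain, showed the same form, at 30.9 to 233 in cluster 9 and 0 in all 9 cluster 15 sums, at least 110.4-fold lower (joint fit of edgeR, adjusted p = 0.00378, and 0.0927 without Q6 and Q8). Ptx4 was found in 11 cells of cluster 9, and so was Col6a5.

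Further genes of cluster 9 had values above cluster 15 on each of the 5 plates. Ngb, neuroglobin, a heme protein of neurons, had means of 829.4 ± 251 and 179 ± 98.8 CPM (SD, n = 5 plates) and was called in the joint fit (log2 fold change -2.36 ± 0.53, edgeR adjusted p = 0.0113). Kcnmb4, a regulatory subunit of large-conductance calcium-activated potassium channels, had means of 164 ± 123 and 10.4 ± 15.9 (joint fit, -3.82 ± 0.68, adjusted p = 0.000461). Its antisense neighbour Kcnmb4os2 overlaps it and, with the strand setting of the count not given in the sources used here, their UMIs may not be told apart. Wnt4, a secreted signalling protein, had 421 UMIs in cluster 9 and 1 in cluster 15 over the 5 plates (joint fit, adjusted p = 0.0158). Pcdh7 (a protocadherin), Chodl (a membrane lectin), Krt90 (a keratin), Dner (a Notch ligand relative) and Qdpr (dihydropteridine reductase) were also called in the joint fit, with log2 fold changes from -4.92 to -1.04. Of the genes in this paragraph Kcnmb4 and Dner were also called without Q6 and Q8 (adjusted p = 0.00217 and 0.0106), and none was called on the Q plates alone.

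Pou3f2 had the lowest p in the joint fit among the genes higher in cluster 15. It encodes a POU-domain transcription factor needed for PVH neurons to form. In cluster 9 it was at 1.81 CPM on Q5, 10.4 on Q6, 0 on Q7, 2.67 on Q8 and 0 on JM8. Cluster 15 stood at 111, 517, 146, 124 and 87.5, so the clusters did not overlap on these plates, and the lowest of the 4 further cluster 15 sums was 41.0. At least 10 UMIs were found in 1 of 25 cells of cluster 9 and in 23 of 60 cells of cluster 15. The 5-plate fit gave 6.59 ± 1.38 (edgeR adjusted p = 0.281) and the joint fit 5.71 ± 0.63 (adjusted p = 2.37e-10).

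Sirpa, a membrane receptor for CD47, was called in all 3 joint fits (7.68 ± 1.08, edgeR adjusted p = 8.94e-07). In cluster 9 there was a single UMI, in 1 of 25 cells, and the ratio over the 5 plates was 468.5 (counting interval 83.7 to 18540). In cluster 15, 40 of 60 cells (66.7%) had it, beside 47.6% (cluster 8) to 91.7% (cluster 3) in the other PVH clusters. Its level in cluster 15 was 36.9 CPM on Q5, 147 on Q6, 149 on Q7, 0 on Q8 and 121 on JM8, so Q8 did not differ. Reln gave 39.4 on Q5, 0 on Q6, 181 on Q7, 0 on Q8 and 308 CPM on JM8 in cluster 15, and 39.2 to 292 on the 4 other plates. Over the 5 plates the ratio of Reln to cluster 9, which held 1 UMI, was 705 (counting interval 126 to 27890). Reln did not pass the low-count filter of the 5-plate fit.

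**Figure D3:**
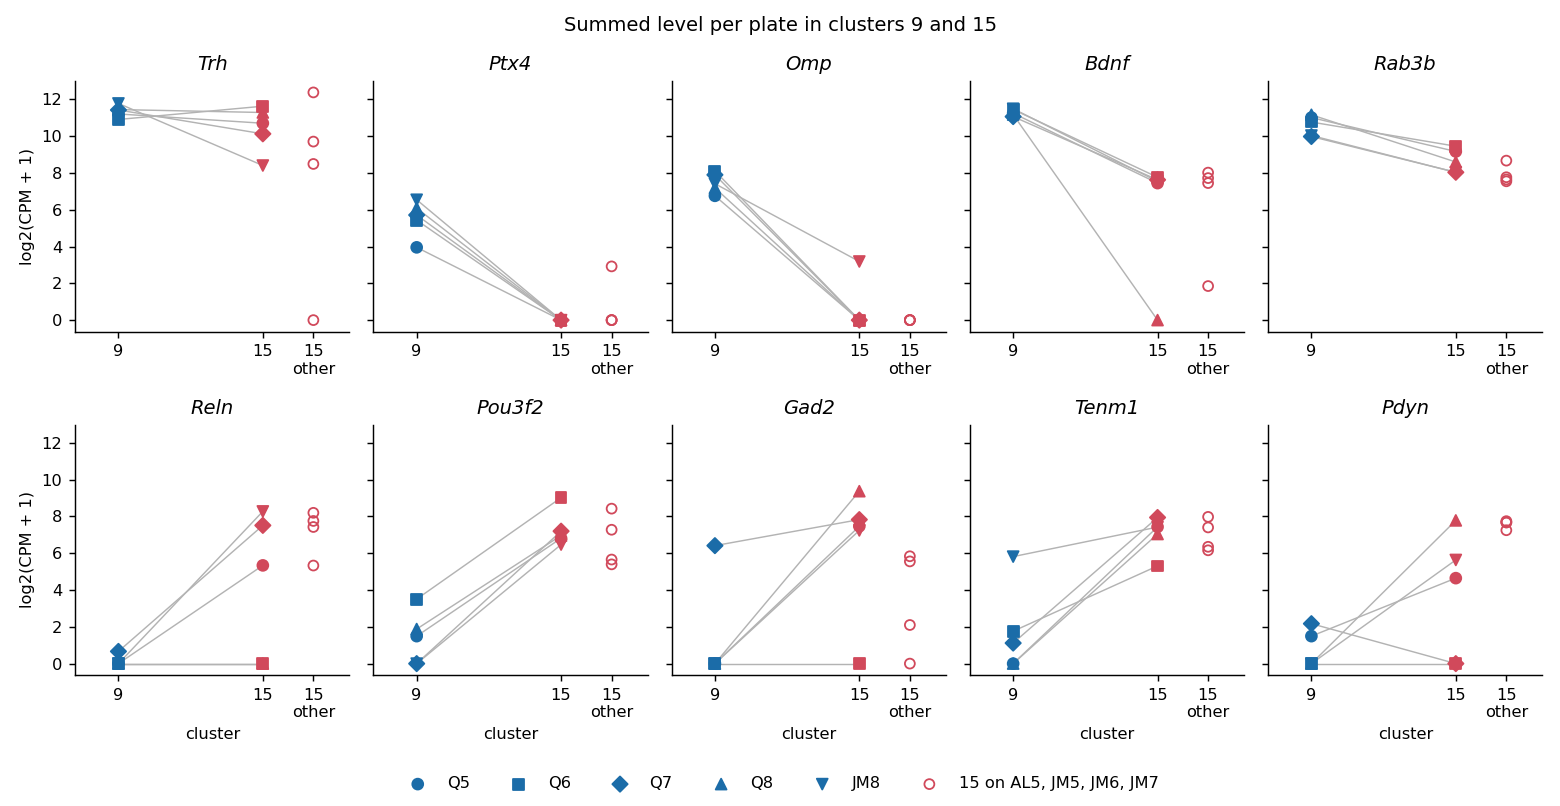
Summed level on each plate, as log2(CPM + 1), of 5 genes higher in cluster 9 or shared (top) and 5 genes higher in cluster 15 (bottom). Filled points joined by a line are the 2 clusters on 1 of the 5 compared plates and open points are cluster 15 on the 4 other plates. The clusters do not overlap for Ptx4, Omp, Bdnf, Rab3b and Pou3f2, and they do for Trh, Gad2 and Pdyn.

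Of the 10 genes named by the rule for cluster 15, Tenm1, Lmo4, Nefl, Atp5c1, Pou3f2 and Malat1 were called in the joint fit, and Ogt, Anapc4, Luzp1 and Slc25a5 were not. Without Q6 and Q8 Pou3f2 and Nefl were still called, and on the Q plates alone Pou3f2, Tenm1 and Malat1. Tenm1, a teneurin of synaptic partner matching, was at 171.5 on Q5, 38.6 on Q6, 245 on Q7, 131 on Q8 and 170 CPM on JM8 in cluster 15. In cluster 9 it was at 0, 2.39, 1.17 and 0 on the Q plates but 55.3 on JM8, so the ranges overlapped through JM8. Its log2 fold change was 4.15 ± 0.93 in the joint fit (edgeR adjusted p = 0.0109) and its adjusted p without Q6 and Q8 was 0.1501. Nefl, the light neurofilament, had means of 88.3 ± 51.0 and 372 ± 370 (joint fit, 2.13 ± 0.49, adjusted p = 0.0129), with the Q8 sums of both clusters far below the rest at 2.67 and 14.1. Nefl was called without Q6 and Q8 (adjusted p = 0.00444) but not on the Q plates alone (adjusted p = 0.436), and it overlaps Nefm, its neighbour, in the annotation. Lmo4 (a LIM-only transcription cofactor) had a UMI in 3 of 25 and 29 of 60 cells, and Anapc4 (a subunit of the anaphase-promoting complex) in 5 and 40.

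**Figure D4:**
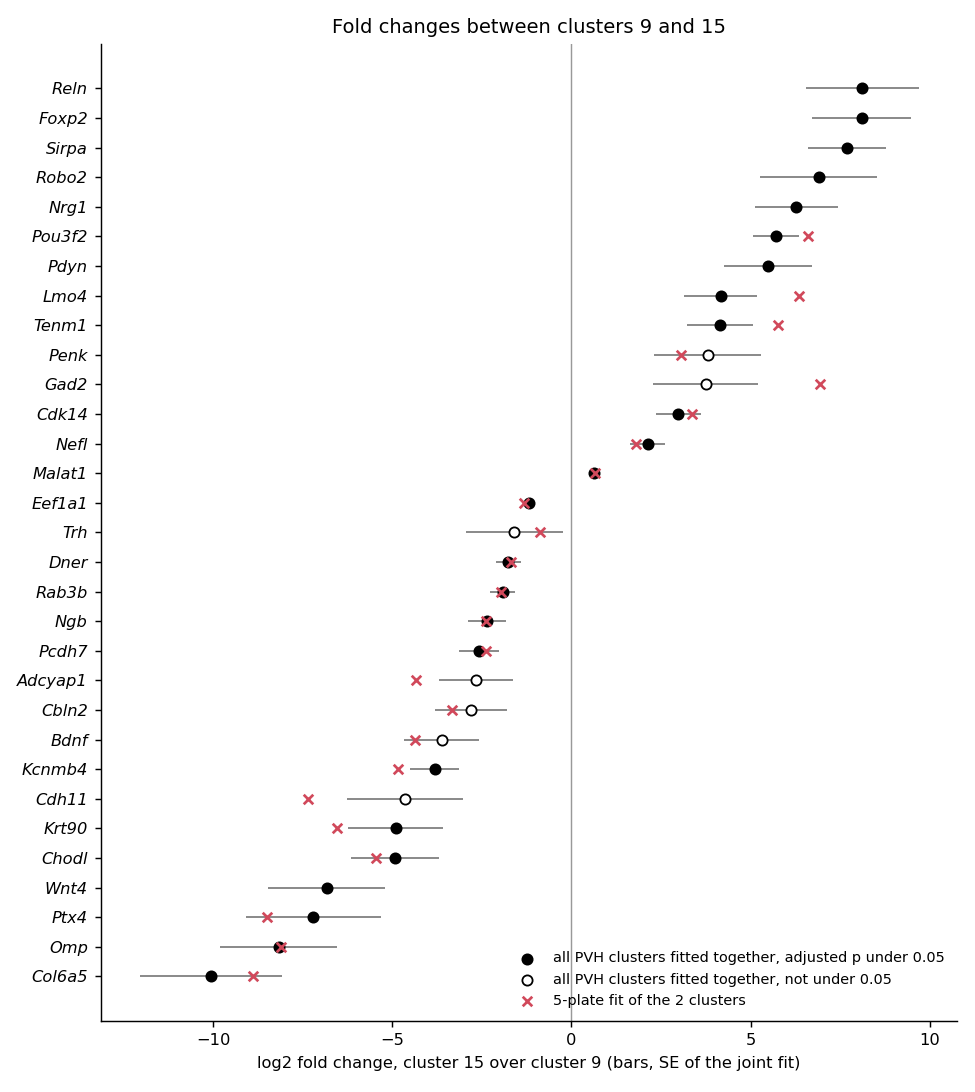
Log2 fold change of cluster 15 over cluster 9 (x axis) for named genes (y axis). Circles are the joint fit of all PVH clusters with its SE, filled where the adjusted p was under 0.05, and crosses are the 5-plate fit. Of the genes drawn, only Rab3b passed in the 5-plate fit, and Bdnf, Adcyap1, Cbln2, Cdh11, Gad2 and Penk passed in neither. Trh, Ptx4 and Reln are marks of the clusters and are drawn as a description.

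Neuropeptide genes gave no call in the 5-plate fit. Of 64 neuropeptide precursor genes 21 were tested and 0 were called by edgeR, and 10 had an unadjusted p under 0.05, against 192 of all 6529 genes (2.94%). DESeq2 called 5 (Adcyap1, Cbln1, Cbln2, Gal and Tac1), against 79 of 6529 (1.21%). Their median log2 fold change was -0.77, beside -0.17 over all tested genes. In the joint fit the median of 32 neuropeptide genes was -0.07, beside 0.15 over all genes of that fit. Adcyap1, the precursor of PACAP, was at 42.8 to 549 CPM in cluster 9 and at 0 to 94.0 in cluster 15 on the 5 plates, but at 112 to 300 in cluster 15 on the 4 other plates. The 5-plate fit gave -4.33 ± 1.11 on the log2 scale (edgeR adjusted p = 0.663), and the value was -2.68 ± 1.03 in the joint fit (adjusted p = 0.200). Cbln2, a synaptic organizer released by neurons, had a UMI in 24 of 25 and 13 of 60 cells.

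Other peptide genes differed between plates of 1 cluster. Penk, the enkephalin precursor, was at 39.9, 20.7, 280, 0 and 11.1 CPM in cluster 9 and at 123, 274, 56.5, 491 and 204 in cluster 15 on Q5, Q6, Q7, Q8 and JM8, higher in cluster 15 on 4 of 5 plates (3.06 ± 1.41, edgeR adjusted p = 0.999). Penk was found in 8 of 25 and 24 of 60 cells. In cluster 15, 10 cells had Trh and Penk together, and 13 had Reln and Penk. Sst, somatostatin, reached 1841 on Q5 and 699 on Q8 in cluster 15 and no more than 36.6 on its other plates. Pdyn, the dynorphin precursor, had a UMI in 2 of 25 and 23 of 60 cells, and it was the 1 gene called among the 32 neuropeptide genes of the joint fit (5.50 ± 1.23, adjusted p = 0.0122, and 0.157 without Q6 and Q8). Over all genes of that fit 1.11% were called. In the other PVH clusters Pdyn was found in 5.71% (cluster 7) to 100% (clusters 2 and 3) of cells.

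Oxt and Avp, the oxytocin and vasopressin precursors, were found at low levels in almost all cells of both clusters. They were also found in most cells of every other cluster. In cluster 6, outside the PVH clusters, each had a UMI in 25 of 25 cells, with a median of 221 CPM for Oxt. In cluster 11, also outside them, Oxt was found in 11 and Avp in 13 of 13 cells. The source of these UMIs was not tested. Oxt had a UMI in 25 of 25 and 57 of 60 cells, with a median of 213 and 122 CPM among them, against 77930 in cluster 1. Its summed level was 479 in cluster 9 and 606 in cluster 15 on Q5, and 36.9 and 34.9 on JM8. One cluster 15 sum outside the comparison, JM5, had 2523 for Oxt, and JM7 had 1694 for Avp. Crh, corticotropin-releasing hormone, had 1 UMI in 1 cell of cluster 9 and none in cluster 15.

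Genes that mark the transmitter of a neuron gave 0 calls among 8 tested of 24 by edgeR, with 4 at an unadjusted p under 0.05, and 3 by DESeq2, Th and Ddc among them, and the median of the list was -0.07. Over all 6529 tested genes 2.94% had such an unadjusted p and 1.21% were called by DESeq2. Slc17a6, the vesicular glutamate transporter VGLUT2, had a UMI in 19 of 25 (76.0%) and 47 of 60 (78.3%) cells, and its log2 fold change was 0.98 ± 1.07 (edgeR adjusted p = 0.999). Slc32a1, the vesicular GABA transporter, had no UMI in either cluster. The exact 95% upper bounds of the share of cells with a UMI were 13.7% in cluster 9 and 5.96% in cluster 15, which limit cells with a UMI and not cells that express the gene. In cluster 6, where it was found, it had a UMI in 12 of 25 cells (48.0%). Gad2 was at 176, 0, 226, 660 and 150 CPM in cluster 15 and at 0 on every plate but Q7, with 84.1, in cluster 9. It had a UMI in 18 of 60 and 3 of 25 cells (6.94 ± 1.89, edgeR adjusted p = 0.877, and 0.211 in the joint fit). Over the 5 plates its pooled level was 6.40-fold higher in cluster 15 (counting interval 5.37 to 7.67), less than the fitted fold. Of the 18 Gad2 cells of cluster 15, 13 had Slc17a6 too and 10 had Trh.

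Of 96 listed factors 18 were tested on the 5 plates and 0 were called by edgeR (4 at an unadjusted p under 0.05, and 2 by DESeq2, Pou3f2 and Ebf1), with a median of 0.38. Over all tested genes 2.94% had such an unadjusted p and 1.21% were called by DESeq2. In the joint fit 46 were tested, 5 were higher in cluster 15 (Pou3f2, Fezf1, Lhx5, Foxp2 and Bcl11a) and 1 was higher in cluster 9 (Etv5). Over all genes of that fit 1.11% were called, 0.754% higher in cluster 15 and 0.36% higher in cluster 9. The median log2 fold change of these 46 was 1.31, beside 0.15 for all genes of that fit. Foxp2, a forkhead factor, had a UMI in 1 of 25 and 21 of 60 cells, and its level in cluster 15 was 201 to 347 CPM on JM5, JM6 and JM7 but at most 44.1 on the Q plates. In the other PVH clusters it was found in 0% (cluster 7) to 94.3% (cluster 12) of cells. Lhx5, a LIM homeobox factor that overlaps an antisense gene, was found in 1 of 25 and 23 of 60 cells. Of these 6 genes Pou3f2, Foxp2 and Lhx5 were called without Q6 and Q8, and on the Q plates alone Pou3f2 was. Sim1, a factor needed for the PVH to form, did not separate the clusters, with 8 of 25 and 28 of 60 cells, and its fold of -0.38 ± 2.81 on the log2 scale turned positive without Q6 or without Q8 (1.27 and 1.36). Otp, a homeobox factor of the same neurons, was found in 24 of 25 and 56 of 60 cells.

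Receptors, feedback genes and processing enzymes gave few calls. Over all genes 2.94% had an unadjusted p under 0.05, 1.21% were called by DESeq2 and 1.11% were called in the joint fit. Of 67 neuropeptide and hormone receptor genes 11 were tested and 0 were called by edgeR, and their median was -1.25, beside -0.17 over all tested genes. Prlr, the prolactin receptor, was the 1 with an unadjusted p under 0.05 and the 1 called by DESeq2 (-4.75 ± 1.89 in the edgeR fit). Over the 5 plates its pooled level was 4.83-fold lower in cluster 15, less than the fitted fold. On Q6 it was higher in cluster 15, at 336 against 121 CPM. In the joint fit Cckar, a cholecystokinin receptor found in 0 of 25 and 24 of 60 cells, was higher in cluster 15 (adjusted p = 0.0158), and Esr1, an estrogen receptor found in 6 of 25 and 1 of 60 cells, was higher in cluster 9 (adjusted p = 0.0161), of 39 tested, and neither was called without Q6 and Q8. The median of these 39 was 0.09, beside 0.15 over all genes of that fit. Npy1r, a neuropeptide Y receptor, was found in 0 of 25 and 5 of 60 cells. Of 23 genes of thyroid hormone feedback 9 were tested and none had an unadjusted p under 0.05 in edgeR or was called by DESeq2, and none of 15 was called in the joint fit (median on the 5 plates -0.04). Ncoa1, a nuclear receptor coactivator, had the lowest p of them (1.51 ± 1.23). Of 19 prohormone processing genes 14 were tested and 0 were called by edgeR or DESeq2, with 4 at an unadjusted p under 0.05 and a median of -0.57, and 0 of 18 were called in the joint fit (median -0.34). Pcsk1n, which encodes an inhibitor of prohormone convertase 1, was lower in cluster 15 on all 5 plates (-0.74 ± 0.25, edgeR adjusted p = 0.999).

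Of 18 reelin signalling genes 10 were tested, with 0 at an unadjusted p under 0.05 and 0 called by edgeR or DESeq2, a median of -0.53, and Reln, itself the mark of cluster 15, was the 1 gene of 16 called in the joint fit (median -0.64). For this and the next lists, the shares over all genes were 2.94% at an unadjusted p under 0.05, 1.21% by DESeq2 and 1.11% in the joint fit. Fyn, a kinase downstream of reelin, had the lowest p of the list (-2.24 ± 1.74, adjusted p = 0.999). Of 58 pentraxin and synaptic organizer genes 32 were tested and 0 were called by edgeR (3 at an unadjusted p under 0.05 and 3 by DESeq2, the same genes, Ptx4, Cbln1 and Cbln2), with a median of -0.36. In the joint fit C1ql2 and Flrt1 were higher in cluster 15 and Ptx4 in cluster 9, of 48 tested (median 0.09), and none of these 3 was called in either reduced joint fit. Ptx4 is the mark of cluster 9, so its calls, like that of Reln, are a description and no test of these lists. Ntng1, netrin G1, had a UMI in 7 of 25 and 26 of 60 cells (0.65 ± 1.34, edgeR adjusted p = 0.999). Of 71 axon guidance genes 18 were tested, with 0 called by edgeR and 1 at an unadjusted p under 0.05 and by DESeq2, Nrp2, a semaphorin receptor that was at 88.2 to 352 in cluster 9 and 0.538 to 85.9 in cluster 15, and the median of the list was -1.42, beside -0.17 over all tested genes. In the joint fit Slit3 and its receptor gene Robo2 were higher in cluster 15, 2 of 53 tested, neither called in the reduced joint fits, and Robo2 had a UMI in 1 of 25 and 27 of 60 cells. The median of these 53 was -0.18, beside 0.15 over all genes of that fit. Of 36 cadherins and protocadherins 18 were tested and 0 were called by edgeR (2 at an unadjusted p under 0.05 and 2 by DESeq2, Cdh11 and Pcdh7, median 0.06), and 1 of 29 was called in the joint fit, Pcdh7. Cdh11, a classical cadherin, had 265 UMIs in cluster 9 and 2 in cluster 15 over the 5 plates, but cluster 15 reached 30.8 on JM5 and 40.9 on JM7.

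Of 64 potassium channel genes 21 were tested with 0 called by edgeR (2 at an unadjusted p under 0.05 and 1 by DESeq2, Kcnmb4, median 0.06), and Kcnmb4 alone was called of 52 in the joint fit. Beside these and the next lists stand 2.94% of all genes at an unadjusted p under 0.05, 1.21% by DESeq2 and 1.11% in the joint fit. For sodium, calcium, HCN and TRP channels 26 of 52 were tested, 0 had an unadjusted p under 0.05, 0 were called by edgeR or DESeq2, and 0 of 44 were called in the joint fit (median 0.01), with Scn3b, a sodium channel subunit, at the lowest p (0.64 ± 0.37). Receptors for amines, acetylcholine, GABA and glutamate gave 0 calls by edgeR among 26 tested of 89 (3 at an unadjusted p under 0.05 and 2 by DESeq2, Gabrg1 and Gria3, median -0.11) and 0 of 53 in the joint fit. Gabrg1, a GABA-A receptor subunit, had means of 121 ± 58.3 and 16.1 ± 31.9 CPM (SD, n = 5 plates). Of 22 calcium-binding protein genes 17 were tested with 0 called by edgeR (3 at an unadjusted p under 0.05, 1 by DESeq2, Calb1, 0 of 20 in the joint fit, median -0.85 on the 5 plates and -0.39 in the joint fit), and Calb1, calbindin, was lower in cluster 15 on 4 of 5 plates (-1.87 ± 0.45). Of 25 immediate early and stress genes 12 were tested, with 0 at an unadjusted p under 0.05, 0 called by edgeR or DESeq2, and 0 of 18 in the joint fit (median -0.04). Hsp90aa1, a chaperone gene, had the lowest p among them (-0.43 ± 0.22).

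Markers of other cells were found in some cells of both clusters. Th, tyrosine hydroxylase of dopamine synthesis, had a UMI in 13 of 25 and 13 of 60 cells, with means of 242 ± 300.4 and 20.3 ± 21.7 CPM (SD, n = 5 plates), lower in cluster 15 on 5 of 5 plates. Mbp, a myelin gene, had a UMI in 14 of 25 and 19 of 60 cells and was lower in cluster 15 on 4 of 5 plates. The part of such cells in the differences was not tested. The summed level of 29 markers of glia and vessels was 37.4 to 221 CPM in cluster 9 and 0 to 127 in cluster 15 on the 5 plates, 19 of the 29 were at 0 in both, Aqp4, Gfap, Mog and Cldn5 among them, and the 1 that was tested, Mbp, had -2.26 ± 1.46 (edgeR adjusted p = 0.999, DESeq2 not called, and 0 of 4 called in the joint fit). The 19 markers of neurons outside the PVH clusters summed to 87.0 to 782 in cluster 9 and 54.3 to 286 in cluster 15, with 9 at 0. Of these, 2 were tested, 0 were called by edgeR, 1 had an unadjusted p under 0.05 and was called by DESeq2, Th (-3.46 ± 1.07, edgeR adjusted p = 0.999). In the joint fit 3 were tested, and Fezf1, which this list shares with the transcription factors, was called. The shares over all genes were 2.94% at an unadjusted p under 0.05, 1.21% by DESeq2 and 1.11% in the joint fit.

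The medians of several measures of RNA content lay on one side in all 5 plates. Genes per cell had medians of 4874 and 4664 on Q5, 4622.5 and 3239.5 on Q6, 4594.5 and 4363.5 on Q7, 4359 and 3257 on Q8 and 4857 and 4745 on JM8, for clusters 9 and 15 in turn. Cluster 15 was lower on 5 of 5 plates, with a mean difference of -608 ± 590 genes (exact permutation p = 0.0625, two-sided, the smallest that swaps within 5 plates can give), and of -373 ± 375 genes when cells were thinned to 59988 UMIs. With means over cells in place of medians, cluster 15 was higher on JM8, by 117 genes (mean difference -699 ± 561, exact permutation p = 0.125). Over all cells of all plates the median was 4668 genes in cluster 9 and 4722.5 in cluster 15. Median UMIs per cell were lower in cluster 15 on 4 of 5 plates (mean log2 difference -0.43 ± 0.48, exact permutation p = 0.125). The share of UMIs from ribosomal protein genes was lower in cluster 15 on 5 of 5 plates with a mean difference of -1.64 ± 1.20 percentage points, and the shares of mitochondrial genes and of Malat1, a nuclear noncoding RNA, were higher on 5 of 5 plates, by 1.20 ± 2.08 and 0.968 ± 1.01 points (exact permutation p = 0.0625 for each). Q6 stood apart, where the 2 cluster 15 cells had 2.32% ribosomal protein, 8.45% mitochondrial and 4.15% Malat1 UMIs. Without Q6, left out after seeing the data, the mean differences were -1.11 ± 0.055, 0.286 ± 0.406 and 0.520 ± 0.108 points (SD, n = 4 plates), on the same side on each of the 4.

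**Figure D5:**
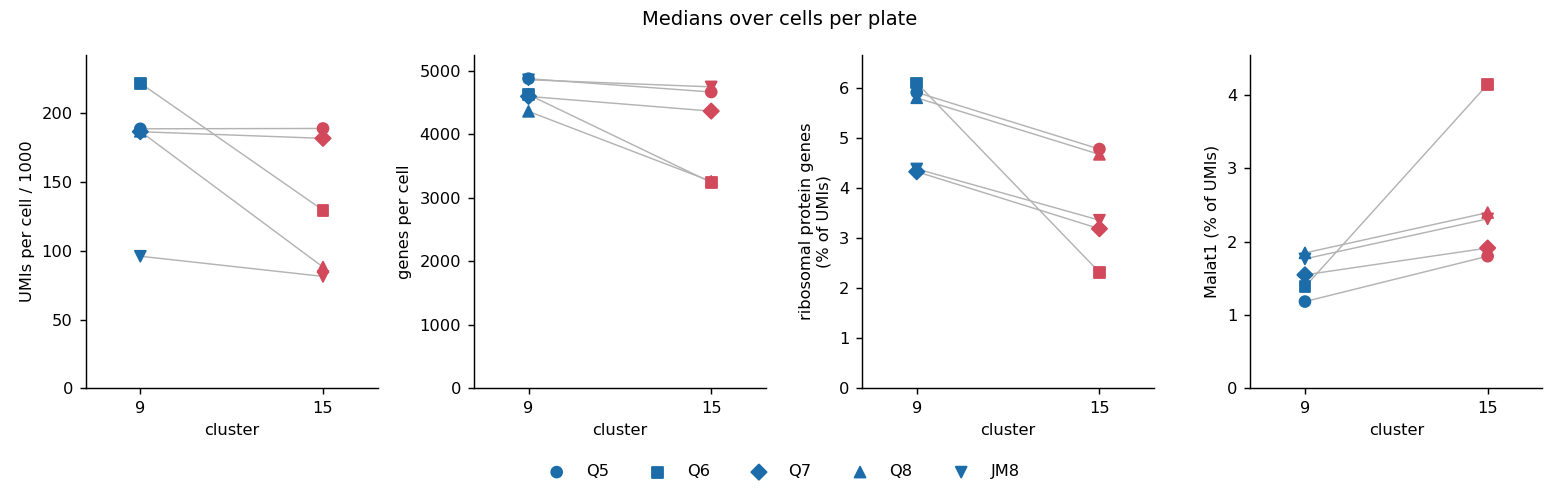
Medians over the cells of clusters 9 (blue) and 15 (red) on each of the 5 plates, joined by lines, for UMIs per cell divided by 1000, genes per cell and the percent of UMIs from ribosomal protein genes and from Malat1. Ribosomal protein genes are lower and Malat1 is higher in cluster 15 on all 5 plates, and Q6 (squares) moves farthest in both.

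Malat1 was called in the joint fit (0.62 ± 0.12, edgeR adjusted p = 0.00232, 0.118 without Q6 and Q8 and 0.00933 on the Q plates alone) and had 0.67 ± 0.13 in the 5-plate fit (adjusted p = 0.181). Eef1a1, a translation elongation factor, was at 591 to 1736 CPM in cluster 9 and 174 to 715 in cluster 15 on the 5 plates, lower in cluster 15 on each of them, and was called in all 3 joint fits (-1.19 ± 0.17, adjusted p = 8.94e-07). On the 4 other plates cluster 15 had 728 to 1044. Of 82 ribosomal protein genes in the 5-plate fit 81 had a log2 fold change below 0 (median -0.57) and 0 were called, while over all tested genes 3672 of 6529 (56.2%) were below 0 with a median of -0.17. In the joint fit 14 of 84 were called, all higher in cluster 9, beside 1.11% of all its genes. Such genes have many processed pseudogenes, so their counts are uncertain. What part depth and RNA content have in these differences was not tested.

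Cluster 9 was found on 7 of 10 plates and cluster 15 on all 10. Cluster 9 made up 5.68 ± 3.04% of the PVH cells on the 4 Q plates and 2.13 ± 3.54% on the 6 AL and JM plates (SD), and 17 of its 25 cells lay on Q plates. Cluster 15 made up 7.15 ± 4.93% and 11.3 ± 7.02%, with 22 of 60 cells on Q plates. Neither difference passed an exact permutation test over 210 splits of the plates (two-sided, adjusted p = 0.267 and 0.338 over the 2 clusters). JM8 held 6 of the 8 cluster 9 cells of the AL and JM plates, and without it the adjusted p of cluster 9 was 0.0159.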

How the data were processed

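Single PVH cells were hand-picked, and cDNA was pooled by plate before amplification (SMART-SCRB). The deposited table gives UMI counts of 48397 genes in 960 wells, not normalized, and the authors' metadata give plate, batch and cluster of 706 cells. The deposited barcode list gave the shared barcodes, and spike-in counts were not used. The submitters' processing notes name Trimmomatic 0.36, STAR 2.5.3a and GRCm38.p5. The counting tool and strand are not given in the sources used here, and the sources differ on sequencer and kit.

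Counts were summed per plate and cluster (at least 2 cells of each) and tested with edgeR 4.0.16 in R 4.3.3 (quasi-likelihood, filterByExpr, TMM, Benjamini-Hochberg adjusted p under 0.05). The plate, whose cells shared a library, was the block. The joint fit added the other PVH clusters. DESeq2 1.42.0 was an alternative. Both were tested on simulated data. Exact tests used scipy 1.17.1. Other scalings, filters, cell minimums, thinning and left-out plates were tried.

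Named genes were 15 PVH genes, up to 10 in each direction (called, or next by p, one direction on all plates and found in over 40% of the higher cluster's cells) and, per list, called members or the one with the lowest p. Those named for the joint fit, and the ribosomal protein genes, were picked with their values in view. Members, lists and rules were chosen with earlier results of these data known. Overlaps are from GENCODE M21. A gene of the transmitter list is not reported here.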

Additional observations from a re-analysis of the deposited data

Results flagged for a closer look

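In the 80 groups of 4 to 10 plates examined for 1 plate far from the rest (Dixon's test), 8 had one, where chance gives about 1 in 20. Differences are in log2(CPM + 1), cluster 15 less cluster 9, over the 5 plates. Ntng1 differed by -6.82 on Q8, where cluster 15 had none. Bdnf differed by -11.17 on Q8 for the same reason. Mtch2, a gene of the outer mitochondrial membrane, was higher by 3.32 on Q6. The ribosomal protein genes Rpl6, Rps26 and Rpl26 differed by -2.57, -3.71 and -2.57 on Q6, where the 2 cells of cluster 15 had the lowest ribosomal protein share and the highest mitochondrial share among the 5 compared plates. Rps12 differed by -3.72 on Q8. The part of RNA content in these 4 genes was not tested. Cluster 9 took 9.09% of the PVH cells on JM8, far above the other AL and JM plates, 3 of which had no cell of it.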

How the results depend on the processing

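The count of genes called between the clusters, 1 on the 5 plates, was 79 with DESeq2, 13 with no filter on low counts, 2 with at least 3 cells and 8 with at least 1 cell of each cluster a plate, 133 with all PVH clusters fitted together, 33 for that fit without Q6 and Q8 and 19 for it on the Q plates (the last 2 chosen after seeing the data). Without 1 plate each it ranged from 1 to 2, and Rab3b was called in every fit. The fit with no replicate block called 1 gene, as did thinned cells, the Q plates alone and both other scalings. The AL and JM plates alone could not be fitted, with 1 plate. Sim1 (-0.38) reversed to 2.91 with at least 3 cells, 0.14 with all PVH clusters, 2.23 in that fit without Q6 and Q8, and 1.27 and 1.36 without Q6 and without Q8 on the compared plates, with -2.44 to 1.36 over all plates left out. Ntng1 (0.65) was -0.12 without Q7 and at most 1.47 without another plate, and Hsp90aa1 was 0.052 in the joint fit without Q6 and Q8. The cause was not tested. With 10 UMIs as the minimum the mean Ptx4 share difference moved from -46.7 to -30.0 points. Leaving out each plate gave -38.6 to -26.9 points for Trh, -50.0 to -45.8 for Ptx4 and 18.0 to 37.2 for Reln. The leave-out ranges were -0.53 to -0.26 for log2 UMIs, -731.5 to -414 for genes per cell, 2.62 to 4.94 points for the Q share of cluster 9 (past the threshold only without JM8) and -6.23 to -2.42 for that of cluster 15. Of 1244 other values of the named fold changes 7 reversed, and 31 gained a call with DESeq2 and 44 with all PVH clusters fitted together.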
